A study of Homo sapiens with 6 samples.

Results

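The genes described here are 35 targets of hypoxia-inducible factor (HIF) that act outside glycolysis, taken by symbol from a table of 25992 genes. All 35 were in the table, and 32 had enough counts to be tested. RNA was sequenced from the human cell line 786-O, derived from a clear cell kidney cancer and labelled wild type, grown in DMEM/F12 with 10% serum. In 3 cultures the serum had first been incubated with copper sulfate, and the cells were kept in it long enough for the labels to call the treatment chronic. In 3 control cultures the serum was handled alike with no copper added. The dose is 30 uM in the series text, but the sample labels step from 30 to 31 to 32 uM over copper replicates 1, 2 and 3. The labels do not say whether cultures of a group were started separately, so p-values measure only the spread between these samples, and all 6 share 1 line.

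HIF is a pair of proteins, an oxygen-regulated alpha subunit and the constant partner ARNT, that binds short DNA elements near its target genes. With oxygen present, prolyl hydroxylases mark the alpha subunit and the VHL protein directs its destruction. Clear cell renal carcinoma usually loses VHL, and 786-O is known to lack functional VHL and to rely on HIF-2 alpha, the product of EPAS1, rather than on HIF-1 alpha. Many targets are therefore on in this line without hypoxia. The targets here control acid-base balance, mitochondrial turnover, collagen maturation, chromatin, secreted signals and growth under stress.

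Promoters are shown for the 6 genes with the largest differences between replicate 3 and the other libraries (described below) that had a sequence to print. Each run is the 250 bases before the RefSeq start site (GRCh38.p14), 5′ to 3′ on the gene's strand. Capitals mark ACGTG or GCGTG on either strand, the 2 common forms of the core that HIF binds.

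ADM (chr11:10304823-10305072, plus strand): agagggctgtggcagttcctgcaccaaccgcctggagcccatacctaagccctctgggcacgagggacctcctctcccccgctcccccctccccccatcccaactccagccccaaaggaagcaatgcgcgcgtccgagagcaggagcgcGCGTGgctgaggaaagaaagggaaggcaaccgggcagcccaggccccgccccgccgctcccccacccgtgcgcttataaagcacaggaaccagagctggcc

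TGFA (chr2:70553827-70554076, minus strand): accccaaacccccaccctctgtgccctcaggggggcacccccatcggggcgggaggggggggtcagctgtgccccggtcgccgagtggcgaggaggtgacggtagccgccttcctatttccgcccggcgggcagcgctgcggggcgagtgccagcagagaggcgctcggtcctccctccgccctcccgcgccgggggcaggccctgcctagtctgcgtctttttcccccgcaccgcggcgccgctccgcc

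DDIT4 (chr10:72273674-72273923, plus strand): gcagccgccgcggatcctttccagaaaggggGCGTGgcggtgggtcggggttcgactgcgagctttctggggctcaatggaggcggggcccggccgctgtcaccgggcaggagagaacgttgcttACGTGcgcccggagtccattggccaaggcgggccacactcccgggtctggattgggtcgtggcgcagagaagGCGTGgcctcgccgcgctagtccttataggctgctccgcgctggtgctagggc

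BHLHE40 (chr3:4979187-4979436, plus strand): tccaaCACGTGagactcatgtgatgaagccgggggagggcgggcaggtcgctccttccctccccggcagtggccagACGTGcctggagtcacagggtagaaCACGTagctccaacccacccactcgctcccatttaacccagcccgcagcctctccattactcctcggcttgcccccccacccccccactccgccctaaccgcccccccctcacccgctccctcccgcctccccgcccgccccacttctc

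PPFIA4 (chr1:203026241-203026490, plus strand): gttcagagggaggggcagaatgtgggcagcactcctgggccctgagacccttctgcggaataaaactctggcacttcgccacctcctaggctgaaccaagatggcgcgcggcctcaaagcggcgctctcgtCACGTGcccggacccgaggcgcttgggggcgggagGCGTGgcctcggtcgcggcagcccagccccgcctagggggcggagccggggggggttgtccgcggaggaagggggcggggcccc

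BHLHE41 (chr12:26125038-26125287, minus strand): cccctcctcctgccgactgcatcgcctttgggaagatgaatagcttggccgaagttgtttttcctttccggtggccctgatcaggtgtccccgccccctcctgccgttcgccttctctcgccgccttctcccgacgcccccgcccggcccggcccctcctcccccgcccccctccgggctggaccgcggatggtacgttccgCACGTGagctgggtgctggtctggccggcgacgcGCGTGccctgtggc

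The TGFA promoter held neither core, ADM had 1 and BHLHE40 had 4, where a palindrome read on both strands counts as 2. Over the window from 250 bases before to 50 after the start, RefSeq gave sequence for 29 of the 35 genes, and 23 of those held at least 1 core. ACGTG was in 14 and GCGTG in 18. Among all 17844 windows, 1 a gene, 23.1% held ACGTG, 42.2% held GCGTG and 54.0% held either. Of the 10 genes with a window that rose in replicate 3, 8 held a core, as did all 3 of those that fell and 10 of the 13 tested genes that were not called. A match to so short a motif is a description of the letters in this window.

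Depth was 16301772 to 18189469 counts for the copper libraries and 19219090 to 25079913 for the controls. Of markers of the tissue, the kidney factor PAX8 was at 123 to 147 CPM (counts scaled to a common library size) and PAX2 at 5.63 to 9.01 CPM. CA9 and NDUFA4L2, hallmarks of clear cell renal carcinoma, were all but absent, as given below. Of leukocyte markers, PTPRC had 0 to 4 counts a library, CD3E 0 to 2, LYZ 0 to 3 and CD14 5 to 10. Over 3 endothelial markers, summed counts were 2 to 5. Copper replicate 3 and control replicate 3, which the authors name Cu9 and NCu4, stood apart from the other libraries, and values are given with and without them.

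Levels of the 35 genes spanned a wide range. Per kilobase of the longest GENCODE 29 transcript (protein-coding where there is one), mean levels over the 6 libraries were highest for IGFBP3, a secreted binder of insulin-like growth factors, at 1135 CPM per kb. NDRG1, a stress-responsive differentiation gene, followed at 918 and PLOD2, a collagen lysyl hydroxylase, at 417. DDIT4, an inhibitor of mTORC1, was at 225, PLOD1 at 214, P4HA1 at 140, TGFA at 113 and CA12 at 101 CPM per kb. The other 24 tested genes were between 0.895 and 90.2 CPM per kb.

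The absent genes included the best known HIF target in this cancer. CA9, which encodes the tumour-associated carbonic anhydrase IX, had 0, 2 and 2 counts in control replicates 1, 2 and 3 and 2, 0 and 1 in copper. Where its count was 0, up to 3 counts are allowed, or 0.168 CPM in copper replicate 2 and 0.121 CPM in control replicate 1, for counting error only. The chemokine receptor CXCR4 had at most 9 counts in a library and ANKRD37 at most 14, and none of these 3 genes was tested. NDUFA4L2, a mitochondrial protein, had 14 to 28 counts, against 1460 to 2137 for BNIP3. NDUFA4L2 and ANKRD37 overlap SHMT2 and UFSP2 on the opposite strand, and FAM162A overlaps WDR5B. The use of strand in counting is not stated, so their counts are uncertain.

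Copper was compared with control to ask whether long exposure to the metal changed these genes. None of the 32 tested genes differed in edgeR's quasi-likelihood test at an adjusted p under 0.05, as in 0% of the 12944 genes tested. At an unadjusted p under 0.05 the count was 0 of the 32, against 455 (3.52%) of all genes, and DESeq2 also called 0 of the 32. Their median log2 fold change was -0.06, against 0.0052 for all genes, with 9 above 0 and 23 below. Fitted log2 fold changes ran from -0.28 for PPFIA4 to 0.27 for RAB20. With replicate number as a block the count was again 0, beside 0.17% of all genes, with 4 of the 32 (12.5%) and 1088 of all genes (8.41%) at an unadjusted p under 0.05. In replicates 1 and 2 alone it was 0, beside 0.856% of all genes, with 9 of the 32 (28.1%) and 1618 of 12966 genes (12.5%) at an unadjusted p under 0.05. Of those 9, GBE1 was higher in copper and the others lower. In that fit 8 of the 32 lay above 0 and 24 below. The smallest adjusted p of any of the 32 in any alternative was 0.0746, for BHLHE40 in replicates 1 and 2 alone. Of 6 proliferation genes 0 were called, and their log2 fold changes in copper were all below 0 (median -0.22). Their part in the values of the 32 was not tested.

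**Figure D1:**
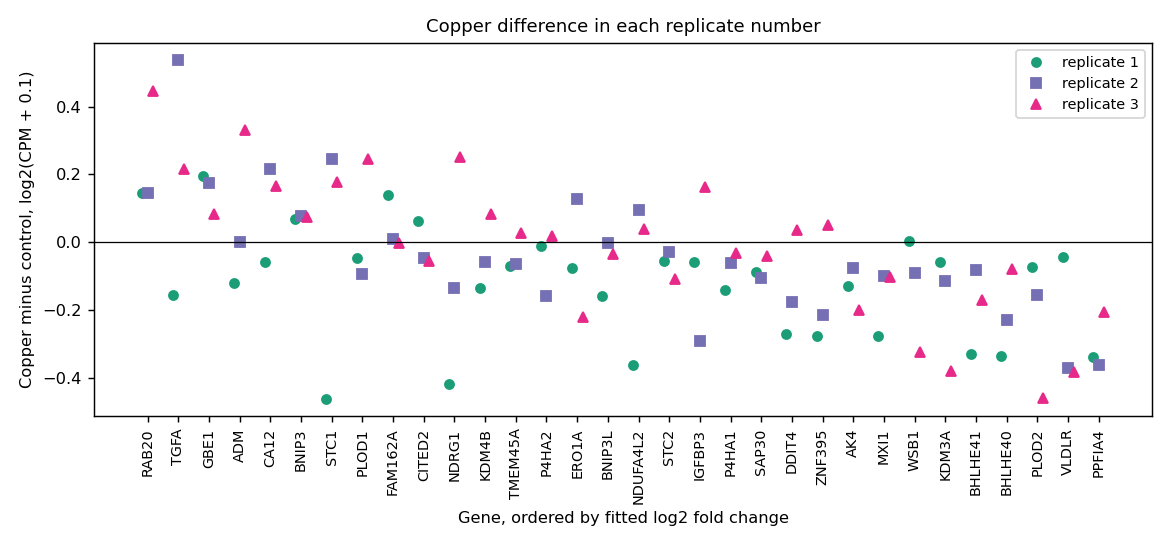
Copper minus control in log2(CPM + 0.1) for each of the 32 tested genes (x axis, ordered by fitted fold change) in replicates 1, 2 and 3 (circles, squares, triangles). Points of a gene often lie on both sides of 0: all 3 had the same sign for 15 genes, 12 of them lower in copper. The same count over all genes was not made.

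Only KDM3A, a histone H3 lysine 9 demethylase, had copper and control groups that did not overlap, 1 of the 32 where 10.8% of all genes did so. KDM3A (Entrez 55818; chromosome 2, 86441371 to 86492716) was at 77.5, 81.3 and 88.8 CPM in control and 74.4, 75.1 and 68.1 CPM in copper. Its log2 fold change was -0.19 (SE 0.10, unadjusted p 0.0935, adjusted p 1.00), so the gap did not pass the test. The largest part of it was in replicate 3, where copper minus control was -0.38, against -0.06 and -0.11 in replicates 1 and 2. Over the 32 genes the median of copper minus control was -0.08 in replicate 1, -0.07 in replicate 2 and 0.0071 in replicate 3, with 6, 9 and 16 genes above 0. Over all 12944 tested genes the medians were 0.0018, 0.0066 and 0.0019, with 6543, 6671 and 6498 genes above 0. The median fitted log2 fold change of the 32 without single libraries ran from -0.13 without copper replicate 3 to 0.021 without control replicate 3. It was 0.011 without copper replicate 1 and -0.12 without control replicate 1, so its sign depended on which library was left out. These fits have no replicate term, and leaving out 1 library gives replicate 3 unequal shares in copper and control. With replicate number as a block the median was -0.06, and in replicates 1 and 2 alone it was -0.09.

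Replicate 3 of both groups, against the other 4 libraries with group as a term, gave a different picture. Of the 32 tested genes, 18 were called, 15 higher and 3 lower in replicate 3. Among all tested genes 29.6% were called, 15.3% higher and 14.3% lower. The median log2 difference of the 32 was 0.27, against 0.00033 for all genes. Libraries of this number were set apart because earlier work on these data had shown that they differ most, so the calls describe the libraries and test no named condition. Apart from the stepped dose labels of the copper cultures, what differed between the cultures is not given in the labels. Culture and library preparation therefore cannot be told apart. In bulk RNA, fewer cells of a type and less RNA per cell cannot be told apart either. Of the 32, 21 (65.6%) were higher and 6 (18.8%) lower in replicate 3 of both groups, against 37.4% and 36.4% of all tested genes. In all 11 alternatives 10 of the 18 calls held: CA12, BHLHE40, BHLHE41, ZNF395, ADM, DDIT4, NDRG1, WSB1 and PPFIA4, all higher, and VLDLR, lower.

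**Figure D2:**
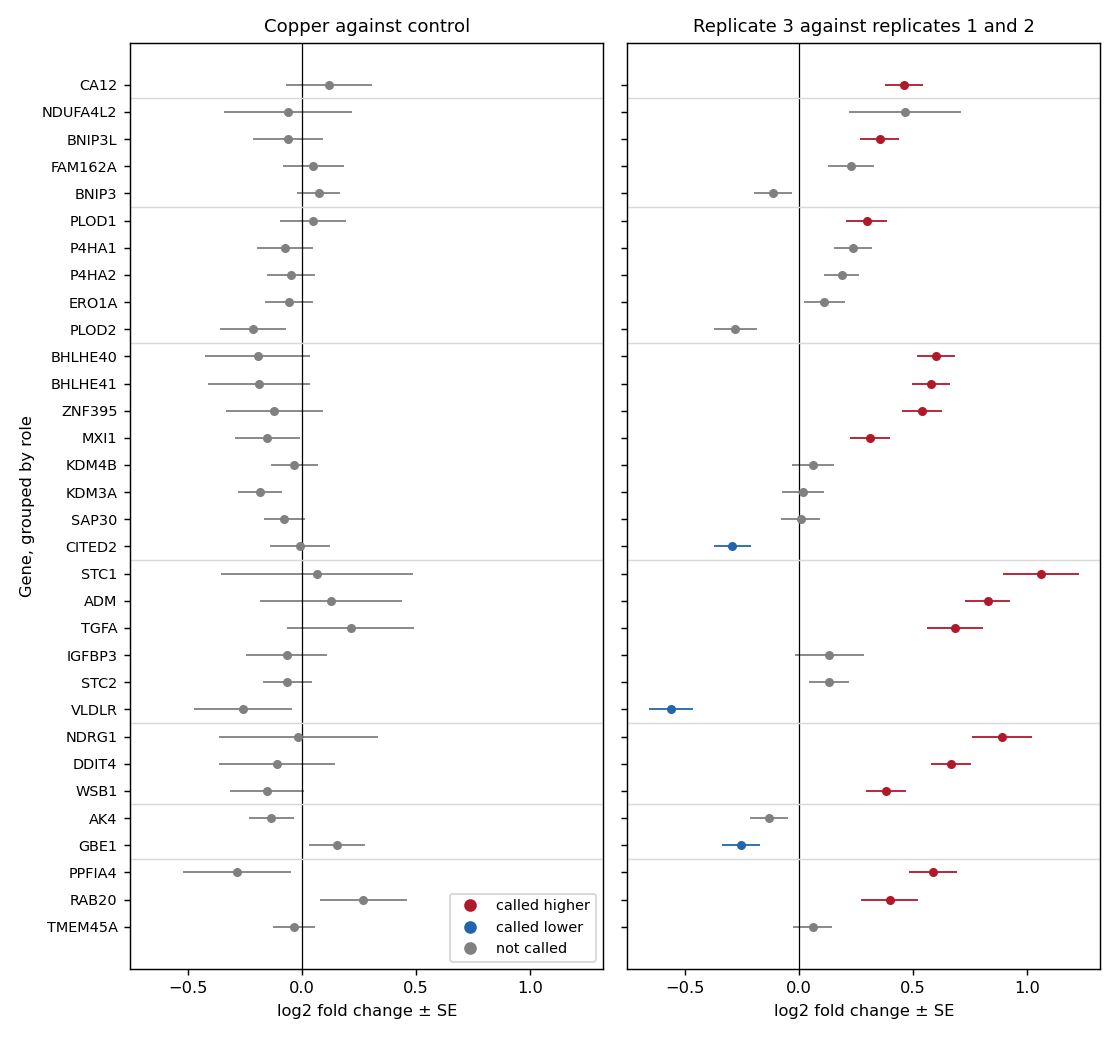
Fitted log2 fold change with its SE for the 32 tested genes, grouped by role (rows), for copper against control (left) and replicate 3 against replicates 1 and 2 (right). Red and blue points were called higher and lower, and grey were not called: the left panel holds 0 called genes and the right 18.

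Replicate 3 libraries also differed by transcript length. The median log2 difference over all tested genes was 0.16 for the shortest of 4 equal bins of transcripts (up to 2185 bases), 0.05 and -0.06 for the middle bins and -0.18 for the longest (from 5225 bases). After a trend with transcript length and GC content was taken out of every library, a setting added after seeing the data, 18 of the 32 were called higher and 3 lower, and their median was 0.26. Values of several genes moved by more than 1.5 times, and those of KDM4B, SAP30 and AK4 changed sign. DDIT4 (transcript of 1748 bases, 58.1% GC) went from 0.66 to 0.40 and VLDLR (9163 bases, 42.7% GC) from -0.56 to -0.29, both still called. Length and GC were fitted together, so the part of each in these changes was not tested. WSB1 went from 0.38 to 0.59, while PLOD1, GBE1 and RAB20 lost their calls at 0.09, -0.16 and 0.13. P4HA1, P4HA2, ERO1A, FAM162A and STC2 were called higher and BNIP3 lower in that setting alone, apart from P4HA1 and P4HA2, which were also called without control replicate 3.

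Among secreted signals and receptors 3 of 6 tested genes were called higher in replicate 3 and 1 lower, beside 15.3% and 14.3% of all tested genes. STC1, a secreted glycoprotein of calcium and phosphate balance (Entrez 6781; chromosome 8, 23841929 to 23854806), was at 55.0, 58.7 and 110 CPM in control replicates 1, 2 and 3 and at 39.9, 69.7 and 124 CPM in copper. Both replicate 3 libraries lay above the other 4, and copper and control overlapped. STC1 rose in replicate 3 by 1.06 on the log2 scale (SE 0.17), or 2.09-fold, with an adjusted p of 0.00258. Its call rested on both libraries: without copper replicate 3 the adjusted p was 0.208 (0.95) and without control replicate 3 it was 0.0716 (1.17). ADM, the vasodilator peptide adrenomedullin (Entrez 133; chromosome 11, 10305073 to 10307397), was at 136, 140 and 213 CPM in control and 125, 140 and 268 CPM in copper. Replicates 1 and 2 differed little, and replicate 3 was the highest library of each group. ADM rose by 0.83 (SE 0.10, 1.77-fold, adjusted p 0.00104).

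TGFA, a ligand of the epidermal growth factor receptor and a known HIF-2 target in kidney cancer, was at 351 to 510 CPM in replicates 1 and 2 and 601 to 698 CPM in replicate 3. It rose by 0.68 (SE 0.12, adjusted p 0.00458), a call lost without copper replicate 3 (adjusted p 0.161, 0.68) or control replicate 3 (0.0726, 0.69). VLDLR, a lipoprotein receptor (Entrez 7436; chromosome 9, 2621787 to 2660056), went the other way. It was at 174, 211 and 138 CPM in control and 169, 163 and 106 CPM in copper, with replicate 3 the lowest library of each group. VLDLR fell by 0.56 on the log2 scale in replicate 3 (SE 0.10, adjusted p 0.00393), and had the smallest p of this role in copper against control (log2 fold change -0.26, SE 0.21, unadjusted p 0.267). That value was -0.07 without copper replicate 3, -0.10 without control replicate 2 and -0.40 without control replicate 3. VLDLR-AS1, on its opposite strand, had 3.01% as many counts. STC2, a relative of STC1, was at 0.13 (SE 0.09, adjusted p 0.276), and IGFBP3, at 2211 to 3362 CPM, at 0.13 (SE 0.15, adjusted p 0.528). Neither passed the test.

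**Figure D3:**
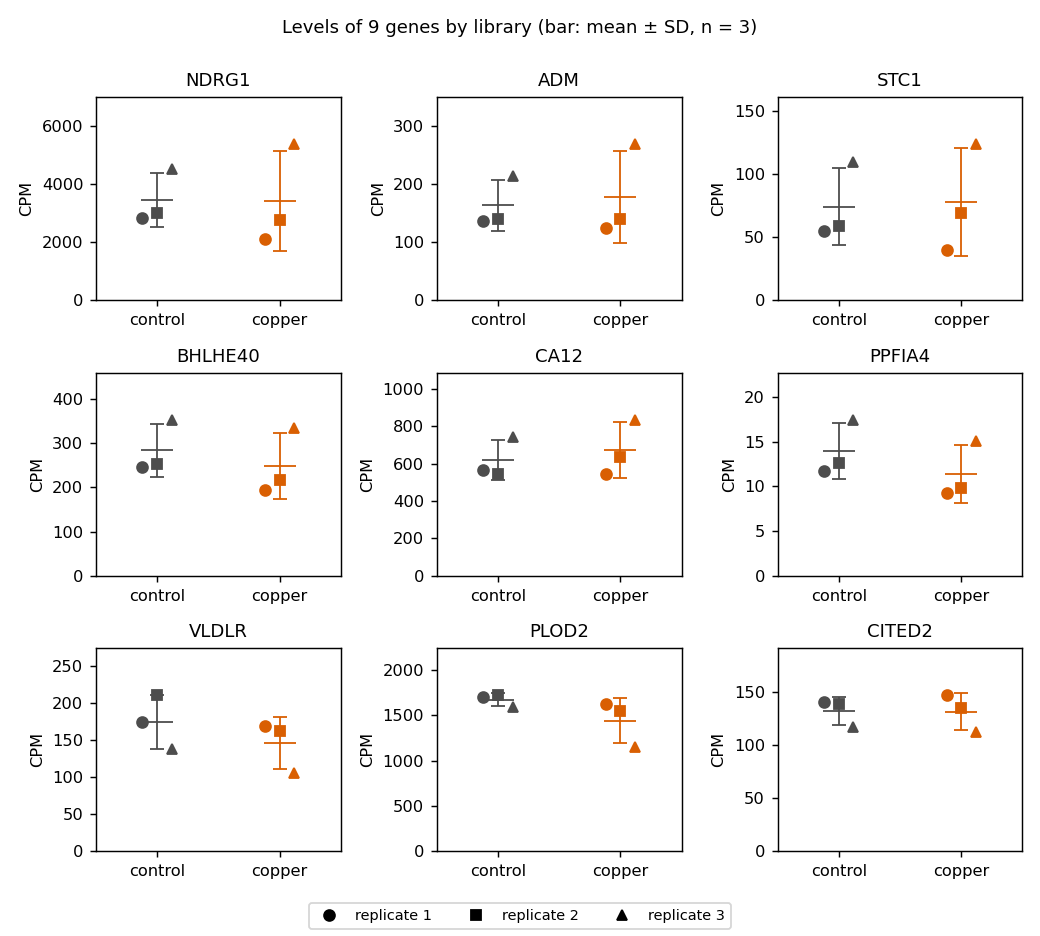
CPM of 9 genes in each library for control (grey) and copper (orange), with replicates 1, 2 and 3 as circles, squares and triangles and bars for mean ± SD (n = 3). The triangles are the highest points of each group for NDRG1, ADM, STC1, BHLHE40, CA12 and PPFIA4 and the lowest for VLDLR, PLOD2 and CITED2, while the control and copper bars overlap.

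Of the 4 regulators of growth and stress, ANKRD37 was not tested and the other 3 were called higher in replicate 3, as were 15.3% of all tested genes. NDRG1 (Entrez 10397; chromosome 8, 133237175 to 133297252) was at 2841, 3031 and 4531 CPM in control and 2127, 2761 and 5392 CPM in copper. Copper held both the lowest and the highest library, so its mean of 3427 ± 1731 CPM (SD, n = 3) differed from the control mean of 3468 ± 926 CPM by far less than the spread. NDRG1 rose in replicate 3 by 0.89 (SE 0.13, 1.85-fold, adjusted p 0.00203). DDIT4 was at 287 to 365 CPM in replicates 1 and 2 and 515 to 528 CPM in replicate 3, and rose by 0.66 (SE 0.09, adjusted p 0.00145). WSB1, a substrate adaptor for ubiquitin ligases (Entrez 26118; chromosome 17, 27294114 to 27315926), was at 108, 113 and 158 CPM in control and 109, 106 and 127 CPM in copper. It rose by 0.38 (SE 0.09, adjusted p 0.0113), by 0.24 without control replicate 3. WSB1 also had the smallest p of this role in copper against control (-0.15, SE 0.16, unadjusted p 0.375), a value of -0.26 without control replicate 1 and 0.04 without control replicate 3.

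Transcription factors and chromatin enzymes split in replicate 3. Of the 8, 4 were called higher and CITED2 was called lower, beside 15.3% and 14.3% of all tested genes. The histone demethylases KDM3A and KDM4B and the corepressor subunit SAP30 lay between 0.0073 and 0.06. BHLHE40, a circadian and hypoxic repressor (Entrez 8553; chromosome 3, 4979437 to 4985323), was at 246, 254 and 353 CPM in control and 195, 216 and 334 CPM in copper. It rose by 0.60 in replicate 3 (SE 0.08, adjusted p 0.00169). Its paralogue BHLHE41 rose by 0.58 (SE 0.08, adjusted p 0.0019) and the zinc finger protein ZNF395 by 0.54 (SE 0.09, adjusted p 0.00289). MXI1, an antagonist of MYC, rose by 0.31 (SE 0.09, adjusted p 0.0242). Without copper replicate 1 or 3 or control replicate 1 or 2, MXI1 was not called (adjusted p 0.10, 0.071, 0.0617 and 0.0566).

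In copper all 8 of these genes had negative log2 fold changes, from -0.19 for BHLHE40 to -0.0092 for CITED2, and 0 were called. Without copper replicate 3 BHLHE40 was at -0.47 and CITED2 at 0.09, and without control replicate 3 BHLHE40 was at -0.0090. BHLHE40 was lower in copper in every pair of the same number, by -0.34, -0.23 and -0.08 in replicates 1, 2 and 3, yet copper replicate 3 exceeded control replicates 1 and 2. CITED2, which competes with HIF for the coactivator p300 (Entrez 10370; chromosome 6, 139372255 to 139374213), was at 141, 139 and 117 CPM in control and 147, 135 and 113 CPM in copper. Both replicate 3 libraries lay below the rest. CITED2 fell by 0.29 on the log2 scale in replicate 3 (SE 0.08, adjusted p 0.0226), a call lost without copper replicate 1 (0.0932), control replicate 1 (0.0575) or control replicate 2 (0.0582).

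**Figure D4:**
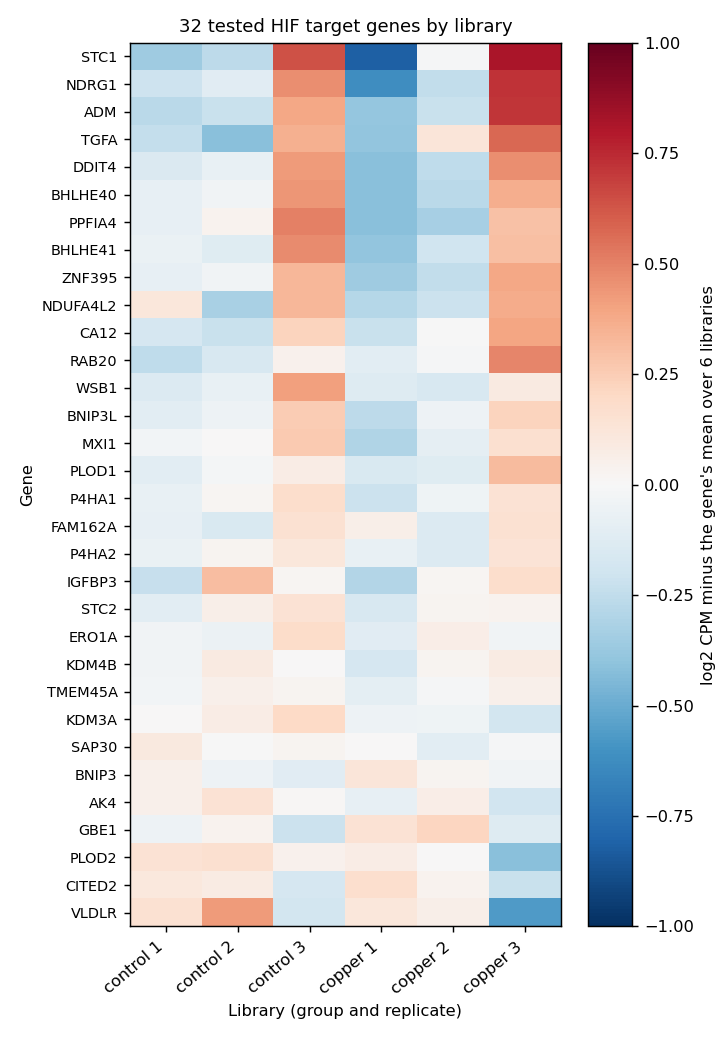
Log2 CPM minus the gene's own mean over the 6 libraries (colour) for the 32 tested genes (rows, ordered by the replicate 3 difference) in each library (columns). Both replicate 3 columns are red at the top, from STC1 (1.06) down, and blue at the bottom, to VLDLR (-0.56), with copper replicate 1 the reverse at the top.

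Of the 2 acid-base enzymes CA12 alone had enough counts to test. CA12 encodes carbonic anhydrase XII of the cell surface (Entrez 771; chromosome 15, 63323531 to 63382110) and was at 568, 545 and 744 CPM in control and 546, 634 and 835 CPM in copper. Replicate 3 was highest in each group. CA12 rose by 0.46 in replicate 3 (SE 0.09, 1.38-fold, adjusted p 0.00502) and had a log2 fold change of 0.12 in copper (SE 0.19, unadjusted p 0.55), which was -0.07 without copper replicate 3 and 0.27 without control replicate 3.

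Among mitochondrial genes the mitophagy receptors BNIP3 and BNIP3L parted. BNIP3L (Entrez 665; chromosome 8, 26390413 to 26413127) was at 119, 123 and 153 CPM in control and 107, 123 and 149 CPM in copper. It rose by 0.35 in replicate 3 (SE 0.08, adjusted p 0.0136), with an adjusted p of 0.0613 without copper replicate 1. BNIP3 (Entrez 664; chromosome 10, 131967683 to 131982013) was at 85.9, 79.9 and 76.5 CPM in control and 90.04, 84.3 and 80.6 CPM in copper. Its difference in replicate 3 was -0.11 (SE 0.08, adjusted p 0.31). BNIP3 had the smallest p of this role in copper against control, with a log2 fold change of 0.07 (SE 0.09, unadjusted p 0.465), and its copper minus control values were 0.07, 0.08 and 0.08 in replicates 1, 2 and 3. Without single libraries the log2 fold change ran from 0.03 (copper replicate 1 or control replicate 3) to 0.11 (control replicate 1 or copper replicate 3). FAM162A was at 0.23 (SE 0.10, adjusted p 0.11) and NDUFA4L2 at 0.46 (SE 0.24, adjusted p 0.172) in replicate 3.

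Collagen enzymes also differed among themselves. PLOD1 (Entrez 5351; chromosome 1, 11934717 to 11975537), a lysyl hydroxylase, was at 582, 615 and 658 CPM in control and 564, 576 and 780 CPM in copper. It rose by 0.30 in replicate 3 (SE 0.09, adjusted p 0.032), with replicate 3 above the others by 0.45 in copper and 0.14 in control (interaction adjusted p 0.0711). The call was lost without copper replicate 1 (0.116), copper replicate 2 (0.0889), copper replicate 3 (0.249, at 0.14) or control replicate 1 (0.0634), and without control replicate 3 the rise was 0.45. PLOD2 (Entrez 5352; chromosome 3, 146069441 to 146161495) was at 1704, 1721 and 1587 CPM in control and 1620, 1546 and 1154 CPM in copper. Copper replicate 3 was the lowest by a wide margin. PLOD2 was at -0.28 in replicate 3 (SE 0.10, adjusted p 0.0502), under the threshold with RLE scaling (0.0481), with no filter (0.0155), with DESeq2 (0.0234) and without control replicate 3 (-0.46, 0.000772). In copper against control it was at -0.21 (SE 0.14, unadjusted p 0.174), the smallest p of this role, and at -0.08 without copper replicate 3. The prolyl hydroxylase subunits P4HA1 and P4HA2 were at 0.24 and 0.19 in replicate 3 (adjusted p 0.0526 and 0.0888), and the oxidase ERO1A at 0.11 (0.371).

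Of the 2 enzymes of glycogen and nucleotides, 1 was called lower in replicate 3, as were 14.3% of all tested genes. GBE1, the glycogen branching enzyme (Entrez 2632; chromosome 3, 81489705 to 81761645), was at 97.3, 104 and 87.1 CPM in control and 111, 117 and 92.4 CPM in copper. It fell by 0.25 on the log2 scale (SE 0.08, adjusted p 0.0404), but only without control replicate 3 did the call survive leaving out a library. The adjusted p was 0.105, 0.093 and 0.111 without copper replicates 1, 2 and 3 and 0.065 and 0.118 without control replicates 1 and 2. With no group term it was 0.0725. AK4, a mitochondrial adenylate kinase (Entrez 205; chromosome 1, 65148994 to 65232145), was at 206, 219 and 201 CPM in control and 188, 208 and 174 CPM in copper. Its replicate 3 difference was -0.13 (SE 0.08, adjusted p 0.242), and it had the smallest p of this role in copper against control (-0.13, SE 0.10, unadjusted p 0.219). That value was -0.08 without copper replicate 3 and -0.21 without copper replicate 2. With the length and GC trend removed, its replicate 3 difference was 0.11.

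Trafficking and membrane genes were few and low. PPFIA4, a liprin scaffold (Entrez 8497; chromosome 1, 203026491 to 203078736), was at 11.7, 12.6 and 17.4 CPM in control and 9.20, 9.81 and 15.1 CPM in copper. It rose by 0.59 in replicate 3 (SE 0.11, adjusted p 0.00445) and was lower in copper in every pair of the same number, with a log2 fold change of -0.28 (SE 0.24, unadjusted p 0.263). Without copper replicate 3 that was -0.54 and without control replicate 3 it was -0.09. RAB20, a small GTPase (Entrez 55647; chromosome 13, 110523066 to 110561722), was at 7.32, 7.79 and 8.96 CPM in control and 8.11, 8.64 and 12.2 CPM in copper. It rose by 0.40 in replicate 3 (SE 0.12, adjusted p 0.0363). It was not called by DESeq2 (0.0842), with no group term (0.0634) or without copper replicate 1 (0.114), 2 (0.0852) or 3 (0.34, at 0.24) or control replicate 1 (0.078) or 2 (0.0512). RAB20 also had the most positive copper fold change of the 32, 0.27 (SE 0.19, unadjusted p 0.196), which was 0.06 without copper replicate 3. TMEM45A was at 37.8 to 42.0 CPM in all 6 libraries.

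The copper difference in replicate 3 was set against that in replicates 1 and 2 with an interaction term. Replicate 3 is 1 library in each group, so the SE and p of this term come only from the spread between replicates 1 and 2 (biological coefficient of variation 5.22%, against 15.4% in copper against control). They compare these libraries and carry no replicate check of replicate 3. Copper replicates 1, 2 and 3 are labelled 30, 31 and 32 uM, so replicate 3 and labelled dose cannot be told apart in this term. One of the 32 genes was called, ADM, beside 11.3% of all genes. ADM was higher in copper by 0.33 in replicate 3 and differed by -0.12 and -0.0006 in replicates 1 and 2, an interaction of 0.39 (SE 0.11, adjusted p 0.0471). It was not called by DESeq2 (0.0905), without control replicate 2 (0.0756), or with the length and GC trend removed, where it was 0.06 (adjusted p 0.867). Of the 15 genes that rose in replicate 3, 14 did so by more in copper than in control, as did 1733 of the 1986 (87.3%) among all genes called higher. The largest gap was that of NDRG1, up by 1.15 in copper and 0.63 in control, with an interaction of 0.52 (SE 0.19, adjusted p 0.116).

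**Figure D5:**
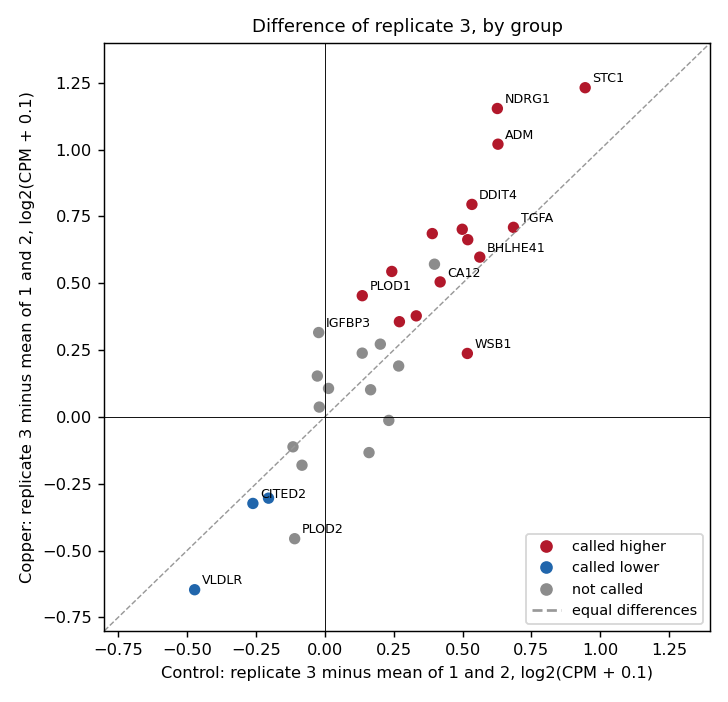
Replicate 3 minus the mean of replicates 1 and 2, in log2(CPM + 0.1), in control (x axis) and copper (y axis) for the 32 tested genes, coloured by their call in replicate 3 against the others. Most points lie in the quadrants where both groups differ the same way, and 14 of the 15 red points lie above the dashed line of equal differences.

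Other genes of the pathway were read from lists. Of 10 oxygen-sensing genes 9 were tested, 0 were called in copper, and 3 were called higher and 0 lower in replicate 3, where 29.6% of all tested genes were called. EPAS1, the HIF-2 alpha gene, was at 374, 381 and 441 CPM in control and 308, 334 and 406 CPM in copper, and rose by 0.28 in replicate 3 (adjusted p 0.0229). EGLN3, a hydroxylase that HIF itself induces, rose by 0.32 (0.0272) and VHL by 0.30 (0.0432). The rise of VHL was 0.48 in copper and 0.13 in control. Of the 9 tested genes 4 lay above 0 and 5 below, with a median of -0.04, and EGLN1 was at -0.46 (adjusted p 0.0509). The fall of EGLN1 was mostly in copper, at -0.88 there and -0.11 in control. HIF1A was at -0.67 in copper and 0.05 in control. Per kilobase EPAS1 was at 72.4 and HIF1A at 2.58 CPM per kb. Of 20 genes of glucose use, 0 were called in copper, and 8 were called higher and 0 lower in replicate 3, where 15.3% of all tested genes were called higher and 14.3% lower. They included the transporter SLC2A3 (1.01), the regulator PFKFB4 (1.20), the enolase ENO2 (0.77) and the lactate exporter SLC16A3 (0.51). PFKFB4 rose by 1.49 in copper and 0.92 in control, and SLC16A3 by 0.73 and 0.28. The median of the 20 was 0.15, with 17 above 0 and 3 below. LDHA (-0.07), PGK1 (0.03) and PKM (0.04) were not called. Of the proliferation genes MKI67 fell by 0.37 on the log2 scale in replicate 3 (adjusted p 0.0358), and the other 5 were not called. The fall of MKI67 was mostly in copper: replicate 3 minus the mean of replicates 1 and 2 was -0.64 there and -0.11 in control.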

How the data were processed

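The authors deposited 1 table of raw counts per gene for 6 libraries, from libraries of the NEBNext Ultra II Directional kit, per the labels. The submitters' processing notes name STAR, FastQC, edgeR and GRCh38; the counting program, its strand setting and its handling of shared reads are not given in the sources used here. Gene positions are the table's, with 1 added to starts that count from 0. The 5 rows without a symbol (0.000814% of counts) were left out.

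Counts were analysed in R 4.3.3. Genes passing filterByExpr of edgeR 4.0.16 (minimum count 10, total 15) were scaled by TMM and tested across all genes with the robust quasi-likelihood test, Benjamini-Hochberg adjustment and a threshold of 0.05. The prior count for log2 fold changes was 2. Their SE is the fold change over the root of F. Within-number differences are in log2(CPM + 0.1). The fitting code was tested on simulated counts. For copper against control these held no replicate 3 difference, so the check does not cover that feature of the data. Chi-square values between libraries of a group were at least 5.40 per degree of freedom, more than counting error gives, so each was counted as a replicate. Such values cannot show that the cultures were started separately.

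Both groups carry numbers 1 to 3. Deviations from the group means correlated between same-numbered libraries at 0.46, 0.40 and 0.65 across 12944 genes (which are not independent). All were above 0.1, the threshold set for giving the blocked fit where it bears on a result. The main copper test left the numbers unpaired, with the block as an alternative. Deviations within a group cancel out, so a difference shared by the replicate 3 libraries alone would push all of these correlations above their threshold. They therefore cannot show that libraries of the other numbers were pairs.

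The 35 genes, the lists and the comparison of replicate 3 were chosen with earlier results of these data known. Genes given in every library were each role's smallest p in copper against control, its largest called rise and fall in replicate 3, and the called interaction. Alternatives were RLE scaling, no filter, DESeq2 1.42.0, the block, replicates 1 and 2 alone, no group term and each library left out. Removal of trends in transcript length and GC content (splines with 4 degrees of freedom on GENCODE 29, 96.1% of tested genes) was added after the data were seen. RefSeq promoters were matched by gene number, taking the window nearest the deposited start. A listed marker gene is not reported here.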

Additional observations from a re-analysis of the deposited data

Results flagged for a closer look

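The copper difference of ADM, the adrenomedullin gene, in replicate 3 was set against that in replicates 1 and 2. The interaction term was 0.39 on the log2 scale (edgeR adjusted p 0.0471). Its call was kept under 5 of 8 alternatives, and was lost with DESeq2, with the length and GC trend removed and without control replicate 2. Replicate 3 has 1 library a group, so the p measures only the spread between replicates 1 and 2 and compares these libraries. Copper replicates 1, 2 and 3 are labelled 30, 31 and 32 uM, so replicate 3 and labelled dose cannot be told apart. Why the difference varied was not tested.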

How the results depend on the processing

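In copper against control 0 of the 32 genes were called under all 13 alternatives. Their median log2 fold change was -0.0646 with the replicate block, which changed no call of these genes, and ranged from -0.126 to 0.0214 over the fits that each left out one library. In replicate 3 against the others, 10 to 15 genes were called higher and 1 to 4 lower without single libraries, and 14 to 18 and 2 to 4 under the other alternatives. The interaction called 3 genes with no filter, 0 with DESeq2 and 0 with the length and GC trend removed. Without single libraries it called 0 to 3, with medians from 0.0192 to 0.155. Without copper or control replicate 3 it could not be fitted.

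Among all genes, the number called in copper against control was 0 as reported, 22 with the block, 27 with DESeq2, 12 with low counts kept, 255 with the block and the trend removed, 111 in replicates 1 and 2 alone and 15 without copper replicate 3. Replicate 3 calls numbered 1458 to 6182 without single libraries, against 3836. Interaction calls numbered 592 with DESeq2, 47 with the trend removed and 1013 to 2635 without single libraries, against 1466. No scaling moved the median of all genes by over 0.1.

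For single genes in copper against control, 371 results kept direction and call and 45 changed sign, all of genes not called. Signs changed with the trend removed for BNIP3L (0.0101), ERO1A (0.0361) and KDM4B (0.0271), with the replicate block for STC1 (-0.00499), with both for ERO1A (0.0319) and KDM4B (0.0266), and in replicates 1 and 2 alone for PLOD1 (-0.0720), ERO1A (0.0281), CITED2 (0.00866), ADM (-0.0573) and STC1 (-0.0487). Ranges that crossed 0 when single libraries were left out were CA12 -0.0700 to 0.270, NDUFA4L2 -0.284 to 0.0663, BNIP3L -0.195 to 0.0586, FAM162A -0.0166 to 0.142, P4HA1 -0.170 to 0.00761, P4HA2 -0.133 to 0.00173, PLOD1 -0.119 to 0.131, ERO1A -0.111 to 0.0223, KDM4B -0.0853 to 0.0348, BHLHE41 -0.415 to 0.0231, CITED2 -0.100 to 0.0904, ZNF395 -0.387 to 0.0204, ADM -0.298 to 0.366, TGFA -0.0531 to 0.478, STC1 -0.436 to 0.452, IGFBP3 -0.195 to 0.0848, DDIT4 -0.424 to 0.0914, NDRG1 -0.505 to 0.232, WSB1 -0.258 to 0.0397 and TMEM45A -0.0713 to 0.000870. For replicate 3, 296 results were unchanged, 32 lost and 12 gained a call, and 12 changed sign, none of a called gene: with the trend removed KDM4B (-0.0647), SAP30 (-0.176) and AK4 (0.112), with no filter SAP30 (-0.00516), and over fits leaving out single libraries ERO1A -0.0167 to 0.232, KDM3A -0.134 to 0.161, KDM4B -0.0268 to 0.148, SAP30 -0.0297 to 0.0362 and IGFBP3 -0.0475 to 0.307. The causes were not tested.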
